A study of Mus musculus with 34 samples.

Results

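The comparison described here sets epiblast stem cells (EpiSC) of the mouse strain NOD/ShiLtJ against those of C57BL/6J. Its members are 7 libraries of 34 in the series, chosen by the strain in their labels: the 2 NOD/ShiLtJ lines AC576 and AC595, and the 5 C57BL/6J lines 1, 2, 4, 5-1 and 44. All 7 lines were EpiSC grown on irradiated mouse embryonic fibroblasts in N2B27 medium supplemented with FGF (12.5 ng/mL), activin A (20 ng/mL) and NVP-TNKS6561, a tankyrase inhibitor (175 nM), and no line carried a further treatment per the labels. The other 10 EpiSC libraries came from NZO/HiLtJ, WSB/EiJ, PWK/PhJ, CAST/EiJ and DBA/2J lines, and 17 more libraries came from definitive endoderm (DE) made from such lines. Each library is 1 cell line, so the NOD/ShiLtJ side rests on 2 lines. NOD/ShiLtJ lines carry names that begin with AC and C57BL/6J lines carry plain numbers, and any difference in how the 2 sets of lines were derived or kept cannot be told apart from strain.

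EpiSC are pluripotent cells in the primed state of the epiblast after implantation, held there by FGF and activin signals, while tankyrase inhibitors stabilise Axin and damp Wnt signalling. Primed cells keep the core factors Oct4 (from Pou5f1), Sox2 and Nanog, have little of the naive factors, and can begin to express genes of the streak, endoderm or neural lineages as they leave pluripotency. NOD/ShiLtJ is the inbred strain known for autoimmune diabetes, and C57BL/6J is the strain of the mouse reference genome. Reads of every strain were aligned to mm10, the C57BL/6J genome, so a gap in expression and a gap in how reads align cannot be told apart.

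Total counts were 27.3 M for AC576 and 33.8 M for AC595, against 26.3 to 31.1 M in the C57BL/6J lines. Levels are given as CPM (counts per 1 M counted reads) after TMM scaling, in the order AC576, AC595 for NOD/ShiLtJ and 1, 2, 4, 5-1, 44 for C57BL/6J, and folds are log2 NOD/ShiLtJ minus C57BL/6J. The lines of 1 strain were not alike: 5.71% of 10674 expressed genes differed at least 2-fold between AC576 and AC595, and 1.75% to 7.85% between pairs of C57BL/6J lines. Fibroblast markers, summed over 17 genes, were at 835 and 4042 CPM in NOD/ShiLtJ and between 144 and 3330 CPM in C57BL/6J, and the part of feeder cells in the results was not tested beyond a fit with these markers as a covariate. Summed Y-linked genes were at 312 and 311 CPM in NOD/ShiLtJ and at 41.4 to 220 CPM in C57BL/6J, with no overlap. In bulk RNA, fewer cells of a type and less RNA per cell cannot be told apart.

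In the fit of all 17 EpiSC libraries, 2334 of 18002 genes tested (13%) passed at an adjusted p under 0.05, with 1091 (6.06%) higher and 1243 (6.9%) lower in NOD/ShiLtJ. At least 2-fold were 536 of the higher and 522 of the lower genes. The count depends on the other strains, which help to set the spread: the biological coefficient of variation was 0.329 within NOD/ShiLtJ and 0.334 within C57BL/6J, but 0.242 over all strains. Fitted on the 7 libraries alone, 411 genes passed, and each of these 411 had also passed in the fit of all strains. Without AC576 the count was 848. Without line 5-1 or line 44 it was 3466 or 1638, and it was 602 when the summed Y-linked level, itself higher in NOD/ShiLtJ, entered the fit. Calls spread over the genome: between 9.96% and 15.7% of the genes of each autosome passed, and of 282 windows of 5 Mb with at least 20 tested genes, 6 held no call. Median log2 levels of whole autosomes, relative to the mean over the C57BL/6J lines, lay between -0.09 and 0.06 in the NOD/ShiLtJ lines. The C57BL/6J lines lay between -0.06 and 0.07, measured from their own mean.

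The main pluripotency factors did not pass the test. Pou5f1, the Oct4 gene, was at 591 and 509 CPM in NOD/ShiLtJ and 483, 670.4, 522, 650.0 and 486 CPM in C57BL/6J, ranges that overlap (log2 fold -0.03, SE 0.13, edgeR adjusted p 0.891). Sox2 (-0.23, SE 0.38) and Nanog (0.51, SE 0.40) overlapped too and did not pass. The primed growth factor gene Fgf5 (-0.24, SE 0.19), the homeobox gene Otx2 (-0.32, SE 0.17) and the de novo methyltransferase gene Dnmt3b (-0.29, SE 0.18) did not pass either, and all 3 overlapped. A p that misses the threshold does not show equal levels. The naive factor gene Zfp42 was at 0 CPM in all NOD/ShiLtJ lines and at most 0.0323 CPM in C57BL/6J, and none of 9 naive pluripotency genes tested passed.

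Among 14 core pluripotency genes 2 rose and 1 fell, a share called of 21.4% against 13% of all genes tested. Their median log2 fold was 0.22, against 0.00082 over all genes tested. Dppa4, which encodes a chromatin factor of pluripotent cells and early embryos (chromosome 16, 48283733 to 48294237), was at 12.4 and 5.91 CPM in NOD/ShiLtJ and at 1.04, 0.924, 0.842, 0.517 and 1.00 CPM in C57BL/6J. Both NOD/ShiLtJ lines were above every C57BL/6J line (log2 fold 3.40, SE 0.46, edgeR adjusted p 0.000471). Its partner and neighbour Dppa2, 9.67 kb away, was at 2.87 and 3.46 CPM in NOD/ShiLtJ and 0.768, 1.54, 0.146, 1.03 and 0.485 CPM in C57BL/6J, again without overlap (log2 fold 2.00, SE 0.58, edgeR adjusted p 0.0369). Tdgf1, the gene of the Nodal co-receptor Cripto, fell to 373 and 386 CPM in NOD/ShiLtJ, against 1091, 723, 813, 976 and 508 CPM in C57BL/6J (log2 fold -1.11, SE 0.23, edgeR adjusted p 0.00899). Of 14 primed epiblast genes 1 rose and 3 fell (28.6% called, median -0.28). The methyltransferase gene Dnmt3a (-0.39, SE 0.08), the ETS factor gene Etv4 (-0.39, SE 0.08) and the N-cadherin gene Cdh2 (-1.86, SE 0.51) fell. The call ended without AC576 for Dppa2 (2.11), Tdgf1 (-1.10), Dnmt3a (-0.39) and Cdh2 (-1.43), without AC595 for Dppa2 (1.85), Tdgf1 (-1.14) and Etv4 (-0.33), without line 1 for Dppa2 (1.99), without line 4 for Cdh2 (-1.66), and without line 44 for Dppa2 (1.86) and Cdh2 (-1.85). Fitted on the 7 libraries alone, Dppa4 passed and the other 5 of these genes did not.

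**Figure D1:**
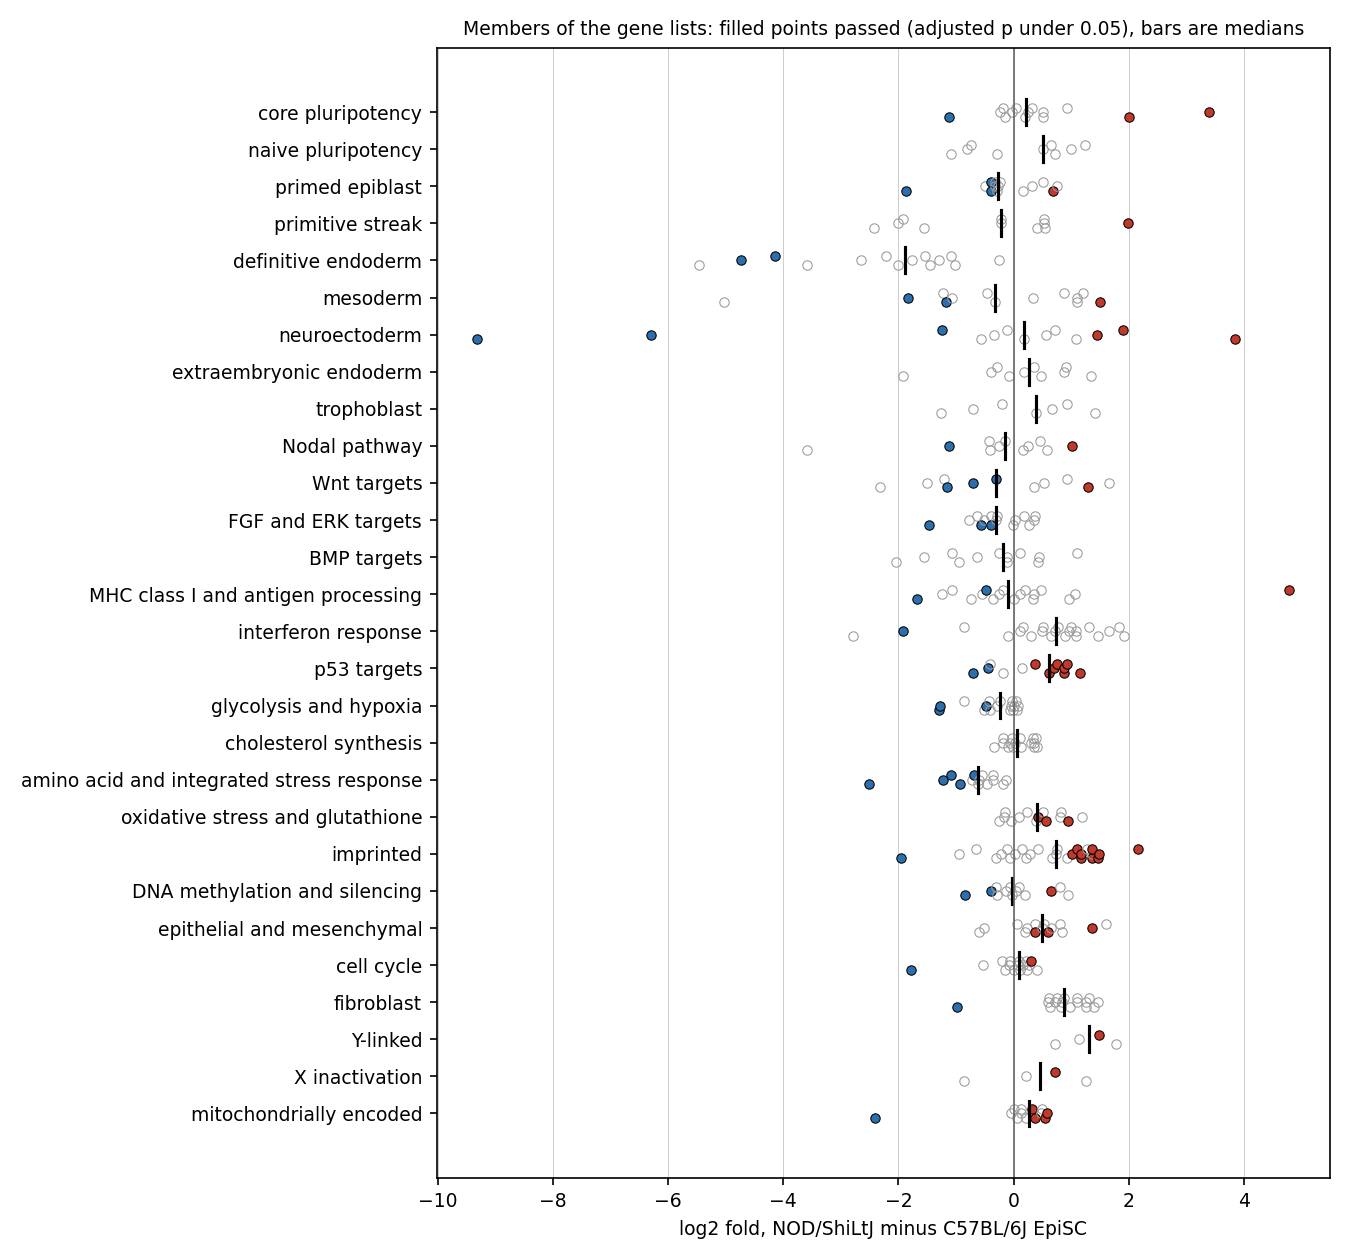
Log2 fold of every tested member of the gene lists drawn, NOD/ShiLtJ minus C57BL/6J EpiSC (horizontal axis), 1 list per row; filled points passed at an adjusted p under 0.05 (red higher, blue lower in NOD/ShiLtJ), open points did not, and the vertical bar is the list's median. The lists of 2-cell-stage, germline, and blood and endothelium genes are not drawn. Filled points of the p53 targets and imprinted rows lie mostly right of 0, those of the amino acid and integrated stress response row all left of it, and the definitive endoderm row lies left of 0 with 2 of 14 points filled.

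The 28 genes with the largest folds among genes with established names were taken by a rule: 14 in each direction, among called genes with at least 5 CPM in the higher strain and no overlap between the strains' lines. Predicted genes, clone names, Rik genes and pseudogenes were passed over, some of them with larger folds. The rule uses these folds, so their size is a description. They came from 625 eligible higher and 873 eligible lower genes, counted in the same way, with Aass (3.00) the first outside among the higher ones. The largest folds upwards belonged to genes that were nearly off in C57BL/6J. Vmn1r43, a pheromone receptor gene of the vomeronasal family (chromosome 6, 89858934 to 89876413), was at 8.53 and 7.46 CPM in NOD/ShiLtJ and at 0, 0, 0.110, 0.0370 and 0 CPM in C57BL/6J (log2 fold 7.90, SE 0.55, edgeR adjusted p 8.8e-07). It belongs to a large family of similar genes, so its reads are uncertain. Mmd2, a membrane protein gene of the progestin and adipoQ receptor family, was at 6.51 and 4.15 CPM in NOD/ShiLtJ and 0, 0.0385, 0.220, 0.222 and 0.0647 CPM in C57BL/6J (log2 fold 5.55, SE 0.63, edgeR adjusted p 0.000166). Rasef, which encodes a Rab-type GTPase with EF hands, was at 9.46 and 5.67 CPM in NOD/ShiLtJ and 0, 0.385, 0.183, 0 and 0.744 CPM in C57BL/6J (log2 fold 4.79, SE 0.73, edgeR adjusted p 0.00122), a call that ended in the fit of the 7 libraries alone. Ttll11, a gene of a tubulin polyglutamylase, was at 12.1 and 10.4 CPM in NOD/ShiLtJ and 0.230, 0.385, 0.512, 0.739 and 0.356 CPM in C57BL/6J (log2 fold 4.65, SE 0.34, edgeR adjusted p 1.3e-06).

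Genes of neural and membrane proteins followed. Nefm, the gene of the medium neurofilament chain of axons (chromosome 14, 68082590 to 68124846), was the most abundant of the 14, at 491 and 379.7 CPM in NOD/ShiLtJ and 30.1, 13.6, 31.6, 52.0 and 24.6 CPM in C57BL/6J (log2 fold 3.84, SE 0.32, edgeR adjusted p 1.37e-05). Its neighbour Nefl, the light chain gene, was at 323 and 354 CPM in NOD/ShiLtJ and 72.0, 193, 71.9, 176 and 108 CPM in C57BL/6J (log2 fold 1.44, SE 0.32, edgeR adjusted p 0.0141). The gene bodies of Nefm and Nefl overlap by 5233 bases in the annotation, so reads could be shared, and the fold of Nefm was the larger. Cntn3, a contactin gene of neural cell adhesion, was at 25.2 and 19.5 CPM in NOD/ShiLtJ and 2.80, 2.23, 1.76, 2.55 and 1.62 CPM in C57BL/6J (log2 fold 3.35, SE 0.22, edgeR adjusted p 4.94e-07). Ptchd2, a membrane protein gene of the patched domain family, was at 23.9 and 19.7 CPM in NOD/ShiLtJ and 0.499, 1.15, 1.17, 1.29 and 1.10 CPM in C57BL/6J (log2 fold 4.38, SE 0.32, edgeR adjusted p 1.24e-06). The transmembrane protein gene Tmem150c was at 47.7 and 20.9 CPM in NOD/ShiLtJ and 3.03, 1.23, 2.60, 1.37 and 1.94 CPM in C57BL/6J (log2 fold 4.07, SE 0.36, edgeR adjusted p 1.23e-05). In each of these 5 genes both NOD/ShiLtJ lines were above all C57BL/6J lines. The call of Nefl ended without AC576 (1.49), without AC595 (1.38) and in the fit of the 7 libraries alone.

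Enzyme, adaptor and metal-binding genes made up the rest of the higher set. Car4, the gene of a membrane-anchored carbonic anhydrase (chromosome 11, 84957786 to 84966044), was at 108 and 69.7 CPM in NOD/ShiLtJ and 5.76, 8.51, 5.97, 2.51 and 11.9 CPM in C57BL/6J (log2 fold 3.68, SE 0.47, edgeR adjusted p 0.000491). Grb14, which encodes an adaptor that restrains insulin receptor signalling (chromosome 2, 64912476 to 65024987), was at 42.9 and 37.8 CPM in NOD/ShiLtJ and 3.15, 2.69, 3.40, 5.32 and 3.91 CPM in C57BL/6J (log2 fold 3.45, SE 0.23, edgeR adjusted p 6.45e-07). The pair of NOD/ShiLtJ values for Grb14 lay close together, and the highest C57BL/6J line, 5-1, stayed far below them. The metallothionein gene Mt2, whose protein binds zinc and copper, was at 26.6 and 21.1 CPM in NOD/ShiLtJ and 3.49, 1.96, 1.72, 4.03 and 2.55 CPM in C57BL/6J (log2 fold 3.11, SE 0.38, edgeR adjusted p 0.000212). Mt1, 5.51 kb from Mt2 and named after its values were seen, was at 155 and 90.0 CPM in NOD/ShiLtJ and 16.6, 15.3, 16.7, 33.1 and 15.9 CPM in C57BL/6J (log2 fold 2.65, SE 0.34, edgeR adjusted p 0.000365). Gem, a gene of a small GTPase of the RGK family, was at 13.8 and 8.26 CPM in NOD/ShiLtJ and 1.57, 0.924, 2.31, 0.517 and 1.46 CPM in C57BL/6J (log2 fold 3.02, SE 0.39, edgeR adjusted p 0.00029). Ap1m2, the gene of a clathrin adaptor subunit of epithelial cells, was at 36.4 and 28.6 CPM in NOD/ShiLtJ and 0.614, 10.2, 1.32, 0.998 and 3.20 CPM in C57BL/6J, where line 2 stood above the others (log2 fold 3.32, SE 0.71, edgeR adjusted p 0.0119). The call of Ap1m2 ended without AC576 (3.11) and in the fit of the 7 libraries alone.

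**Figure D2:**
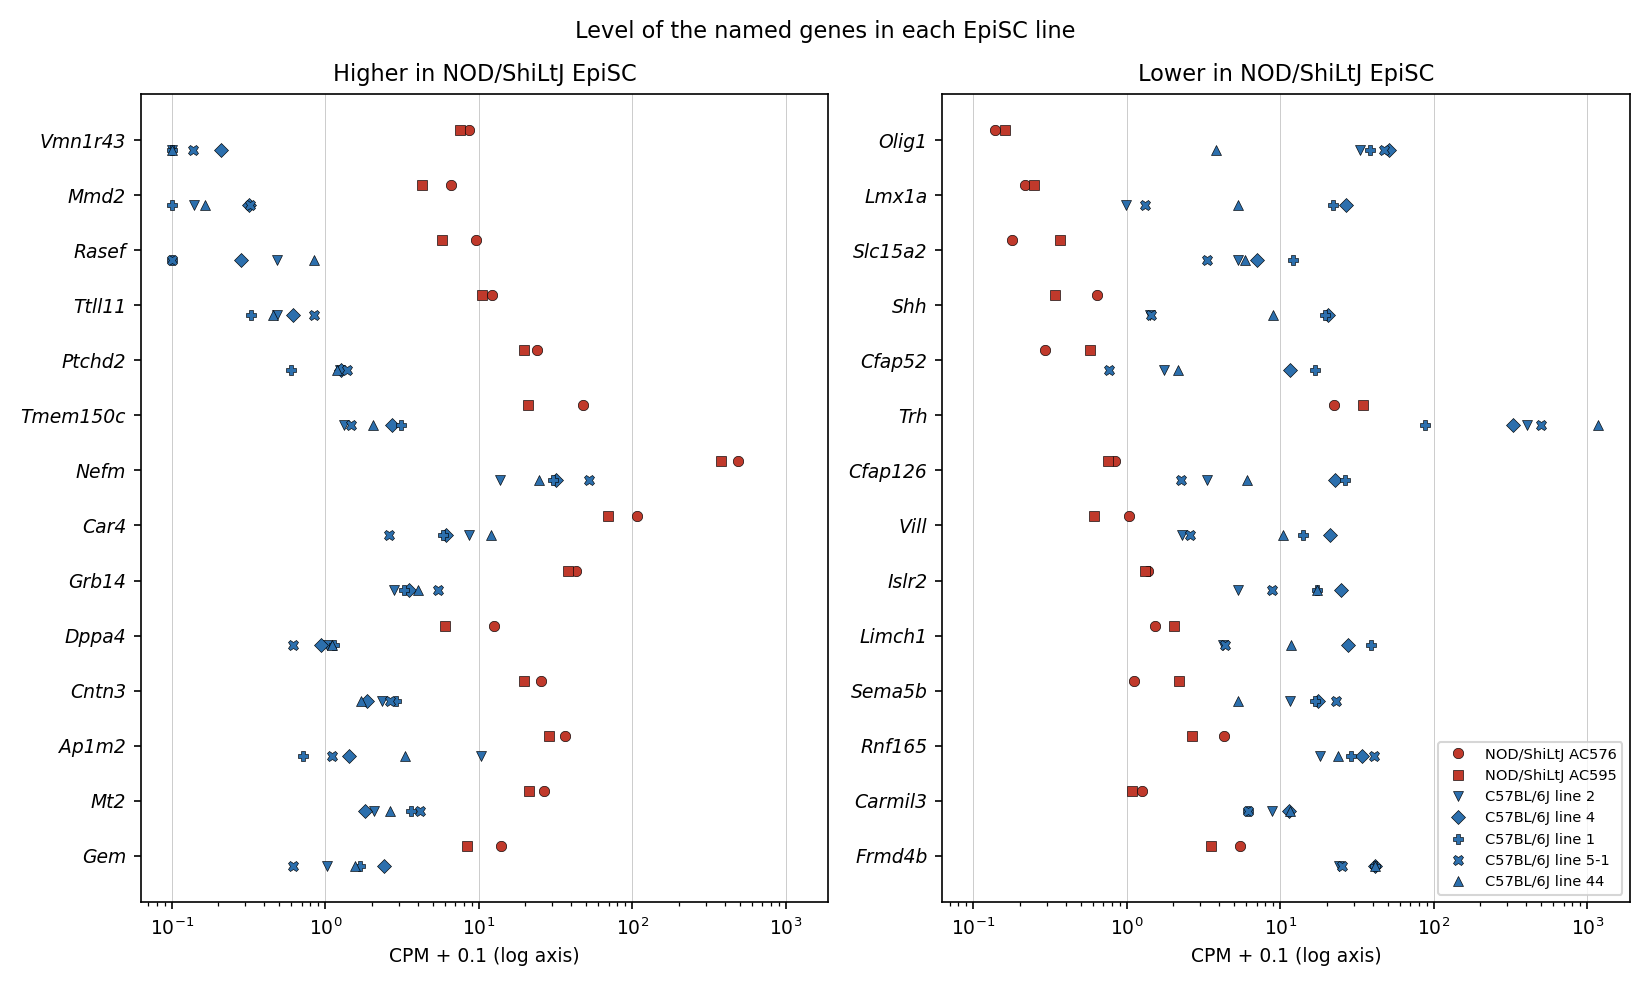
CPM plus 0.1 (log axis) of the 28 genes chosen by the rule in each EpiSC line, NOD/ShiLtJ lines in red above the C57BL/6J lines in blue within each row; the 14 higher genes stand on the left and the 14 lower genes on the right. The strains' lines do not overlap in any row, since the rule asked for this, and C57BL/6J lines 1 and 4 lie to the right of lines 2 and 5-1 in rows such as Shh, Lmx1a, Cfap52 and Limch1.

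The lower set was led by genes that were nearly off in NOD/ShiLtJ and on in C57BL/6J. Olig1, a transcription factor gene of the oligodendrocyte and motor neuron lineages (chromosome 16, 91269772 to 91271933), had 3 counts summed over the NOD/ShiLtJ lines and 4657 over the C57BL/6J lines. Scaled for library size this is a ratio of 670.4 of C57BL/6J over NOD/ShiLtJ, with an exact interval of 229.3 to 3252 at the 95% level that covers counting error only. In CPM Olig1 was at 0.0388 and 0.0597 in NOD/ShiLtJ and 38.5, 33.1, 51.1, 47.4 and 3.72 in C57BL/6J (edgeR adjusted p 0.000886), and line 44 was far below the other C57BL/6J lines. Olig2, the related gene 41.1 kb away, had 2 counts in NOD/ShiLtJ and 402 in C57BL/6J, a ratio of 86.8 with an interval of 23.9 to 719 (edgeR adjusted p 0.0162). Slc15a2, the gene of a peptide transporter on the same chromosome (chromosome 16, 36750177 to 36784962), was at 0.0776 and 0.268 CPM in NOD/ShiLtJ and 11.9, 5.20, 6.95, 3.25 and 5.76 CPM in C57BL/6J (log2 fold -5.16, SE 0.77, edgeR adjusted p 0.000885). The call of Olig2 ended without AC576, without AC595 and in the fit of the 7 libraries alone, where Olig1 and Slc15a2 passed.

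Neural guidance, ubiquitin ligase and cytoskeletal genes were lower in NOD/ShiLtJ with moderate spread in C57BL/6J. Sema5b, a semaphorin gene of axon guidance, was at 1.01 and 2.09 CPM in NOD/ShiLtJ and 16.9, 11.4, 17.6, 22.9 and 5.21 CPM in C57BL/6J (log2 fold -3.24, SE 0.50, edgeR adjusted p 0.00126). Rnf165, which encodes a ubiquitin ligase of motor neurons, was at 4.23 and 2.57 CPM in NOD/ShiLtJ and 28.9, 17.9, 33.97, 40.9 and 23.7 CPM in C57BL/6J (log2 fold -3.10, SE 0.37, edgeR adjusted p 0.000162). Islr2, a neuronal gene with immunoglobulin and leucine-rich repeats, was at 1.28 and 1.22 CPM in NOD/ShiLtJ and 17.2, 5.24, 24.7, 8.72 and 17.2 CPM in C57BL/6J (log2 fold -3.54, SE 0.56, edgeR adjusted p 0.00151). The lowest C57BL/6J lines, 44 for Sema5b and 2 for Rnf165 and Islr2, were still above both NOD/ShiLtJ lines. Carmil3, a gene of an actin capping regulator, was at 1.16 and 0.984 CPM in NOD/ShiLtJ and 6.10, 8.74, 11.3, 6.06 and 11.5 CPM in C57BL/6J (log2 fold -3.02, SE 0.37, edgeR adjusted p 0.000181). Frmd4b, which encodes a FERM domain scaffold, was at 5.39 and 3.43 CPM in NOD/ShiLtJ and 41.3, 24.1, 41.2, 25.0 and 41.3 CPM in C57BL/6J (log2 fold -2.98, SE 0.36, edgeR adjusted p 0.000211). Of the 28 genes, 12 higher and 7 lower ones kept their call under all 17 alternatives, and these 5 are among them.

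The remaining 7 lower genes varied widely among the C57BL/6J lines. Shh, the Sonic hedgehog ligand gene, was at 0.543 and 0.239 CPM in NOD/ShiLtJ and 19.5, 1.31, 20.3, 1.33 and 8.93 CPM in C57BL/6J (log2 fold -4.73, SE 1.25, edgeR adjusted p 0.0282). Lmx1a, a LIM homeobox gene of roof plate and midbrain, was at 0.116 and 0.149 CPM in NOD/ShiLtJ and 21.99, 0.885, 26.7, 1.22 and 5.17 CPM in C57BL/6J (log2 fold -6.34, SE 1.69, edgeR adjusted p 0.0305). Lines 1 and 4 were high for both genes and lines 2 and 5-1 low, though still above both NOD/ShiLtJ lines. The same lines stood high and low for the cilia and flagella genes Cfap52 (-4.22, SE 1.27) and Cfap126 (-4.10, SE 1.06), the villin-like actin gene Vill (-3.81, SE 0.93) and the actomyosin gene Limch1 (-3.35, SE 0.98). Trh, the gene of thyrotropin-releasing hormone, had another order, at 22.1 and 34.4 CPM in NOD/ShiLtJ and 87.8, 402, 329, 502 and 1182 CPM in C57BL/6J, with line 44 highest and line 1 lowest (log2 fold -4.15, SE 0.95, edgeR adjusted p 0.0171). Lines 1 and 4 were both above lines 2 and 5-1 in 9 of the 14 lower genes, and in 2 of the 14 higher ones. Each of these 7 calls ended without AC576, without AC595 and in the fit of the 7 libraries alone, with log2 folds of -6.53 to -3.16 without these lines. The call of Cfap52 also ended without line 1 (-3.50) or line 4 (-3.90), and that of Limch1 without line 1 (-2.82), line 4 (-3.09) or line 44 (-3.46).

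Definitive endoderm markers are given beside this set, which holds 2 of them. Of 14 such genes 0 rose and 2, Trh and Shh, fell, a share of 14.3% near the 13% of all genes tested, and the median log2 fold was -1.89, with all 14 folds below 0. Their summed level was 73.4 and 90.8 CPM in NOD/ShiLtJ and 479 to 1412 CPM in C57BL/6J. Without Trh the sum was 51.3 and 56.5 CPM in NOD/ShiLtJ, against 399.5, 77.1, 316 and 39.2 CPM in C57BL/6J lines 1, 2, 4 and 5-1 and 229.7 CPM in line 44. NOD/ShiLtJ lay between lines 2 and 5-1, and below the other 3. Cer1, the gene of a secreted BMP and Nodal antagonist, had 9.65 and 5.37 CPM in NOD/ShiLtJ and 181, 15.4, 153, 3.77 and 95.7 CPM in C57BL/6J and did not pass (-3.59, SE 1.26). Sox17, the endoderm transcription factor gene, had 2.44 and 0.477 CPM in NOD/ShiLtJ and 10.1, 1.54, 10.3, 0.702 and 10.7 CPM in C57BL/6J and did not pass (-2.22, SE 1.00). With 1 C57BL/6J line left out, Cer1 passed without line 2 (-3.86) or line 5-1 (-3.90), and Sox17 without line 5-1 (-2.51). The number of list members lower was 7 without line 5-1, 4 without line 2, 1 without AC595 and 0 without AC576. With these 14 markers as a covariate, an alternative chosen after the data were seen, 800 of all genes tested passed.

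Targets of p53, the stress-activated tumour suppressor, were mostly higher in NOD/ShiLtJ. Of 13 genes 8 rose and 2 fell, a share called of 76.9% against 13% of all genes tested, and the median log2 fold was 0.62. In 10 of the 13 the strains' lines did not overlap, against 25.2% of all genes tested. Cdkn1a, the gene of the cell cycle inhibitor p21, was at 263 and 218 CPM in NOD/ShiLtJ and 91.4, 83.1, 110.0, 167 and 91.6 CPM in C57BL/6J (log2 fold 1.15, SE 0.21, edgeR adjusted p 0.00473). Mdm2, which encodes the ubiquitin ligase that degrades p53, was at 297 and 349 CPM in NOD/ShiLtJ and 131, 155, 136, 260.1 and 166 CPM in C57BL/6J (log2 fold 0.93, SE 0.21, edgeR adjusted p 0.012). Ccng1, the cyclin G1 gene, was at 515 and 611 CPM in NOD/ShiLtJ and 284, 342, 304, 449 and 294 CPM in C57BL/6J (log2 fold 0.75, SE 0.15, edgeR adjusted p 0.0066). In each of these 3 genes line 5-1 was the highest C57BL/6J line, below both NOD/ShiLtJ lines. The death receptor gene Eda2r (0.87, SE 0.16), the exonuclease gene Aen (0.88, SE 0.19), Trp53inp1 (0.70, SE 0.19), Phlda3 (0.62, SE 0.18) and Ei24 (0.37, SE 0.11) also rose. Sesn1, a sestrin gene (-0.71, SE 0.18), and the zinc finger gene Zmat3 (-0.44, SE 0.12) fell. With 1 library left out, the number that rose was 1 without AC576 (Ccng1), 4 without AC595 and 5 without line 44, and the number that fell was 0 without either NOD/ShiLtJ line. Calls that ended were without AC576 for Cdkn1a (0.99), Mdm2 (1.02), Eda2r (0.77), Aen (0.52), Trp53inp1 (0.60), Phlda3 (0.34), Ei24 (0.40), Sesn1 (-0.75) and Zmat3 (-0.42), without AC595 for Mdm2 (0.81), Ccng1 (0.62), Trp53inp1 (0.78), Ei24 (0.34), Sesn1 (-0.69) and Zmat3 (-0.47), without line 1 for Phlda3 (0.57), without line 2 for Phlda3 (0.57) and Ei24 (0.34), without line 4 for Ei24 (0.37), and without line 44 for Trp53inp1 (0.63), Phlda3 (0.57) and Ei24 (0.33). Fitted on the 7 libraries alone, 1 of the 8 (Eda2r) and 0 of the 2 passed.

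Calls in the amino acid and integrated stress response were all downwards. The response runs through the translation-controlled factor ATF4, which switches on amino acid synthesis, transport and stress genes. Of 14 genes 0 rose, 5 fell and 9 did not pass, a share called of 35.7% against 13% of all genes tested. All 14 fitted folds were below 0, and the median was -0.62, against 0.00082 over all genes tested. Atf4 itself was at 362 and 349.9 CPM in NOD/ShiLtJ and 598, 541, 613, 491 and 613 CPM in C57BL/6J (log2 fold -0.68, SE 0.14, edgeR adjusted p 0.0077). Chac1, a gene of a glutathione-degrading enzyme, was at 5.12 and 25.3 CPM in NOD/ShiLtJ and 62.3, 96.7, 93.4, 61.5 and 120.4 CPM in C57BL/6J (log2 fold -2.50, SE 0.56, edgeR adjusted p 0.0145). The 2 NOD/ShiLtJ lines were far apart for Chac1, and both were below every C57BL/6J line. Atf3, a stress-induced transcription factor gene, was at 8.72 and 9.61 CPM in NOD/ShiLtJ and 20.9, 19.3, 24.9, 15.4 and 26.8 CPM in C57BL/6J (log2 fold -1.23, SE 0.27, edgeR adjusted p 0.0118). Trib3, a pseudokinase gene, was at 49.0 and 30.8 CPM in NOD/ShiLtJ and 63.8, 92.0, 97.9, 59.4 and 111 CPM in C57BL/6J (log2 fold -1.09, SE 0.30, edgeR adjusted p 0.0319). The serine synthesis gene Phgdh also fell (-0.93, SE 0.23), with no overlap. Asns, the asparagine synthetase gene, had 544 and 229 CPM in NOD/ShiLtJ and 717, 447, 710.1, 386 and 682 CPM in C57BL/6J and did not pass (-0.61, SE 0.33), and AC576 lay among the C57BL/6J lines. Calls were lost without AC576 for Atf4 (-0.72), Chac1 (-1.80), Atf3 (-1.17) and Trib3 (-1.48), without AC595 for Atf4 (-0.66), Atf3 (-1.30), Trib3 (-0.79) and Phgdh (-0.56), without line 4 for Trib3 (-1.03), and without line 44 for Trib3 (-0.97). The number that fell was 4 without AC576 (Phgdh and other members), 1 without AC595 (Chac1) and 2 in the fit of the 7 libraries alone (Atf4 and Atf3).

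The promoters of this list were read because ATF4 and its partners are known to bind a short element, and its 5 called members all fell. The windows, 300 bases each (250 before and 50 after the transcription start), come from RefSeq on GRCm38.p6 and cover 13 of the 14 genes. The motif searched was TGATGNAA on both strands (TTNCATCA in the reverse direction), and 3.97% of the 32851 promoter windows of all genes hold it. It was present in 3 of 5 lower genes with a window (Atf3, Trib3 and Chac1) and in 2 of 8 genes that did not pass (Asns and Slc7a11). A match is a description of letters, not a site. The windows of the 3 lower genes and of Asns are shown for comparison, with the motif in capitals, 5′ to 3′ along the gene's strand.
Chac1 promoter (chr2:119350992-119351291, plus strand): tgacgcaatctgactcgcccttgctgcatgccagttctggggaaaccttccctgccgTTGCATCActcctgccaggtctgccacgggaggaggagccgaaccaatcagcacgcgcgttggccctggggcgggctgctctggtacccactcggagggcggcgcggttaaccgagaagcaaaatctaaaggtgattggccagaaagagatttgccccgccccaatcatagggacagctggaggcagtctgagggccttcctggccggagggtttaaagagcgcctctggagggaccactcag
Trib3 promoter (chr2:152344011-152344310, minus strand): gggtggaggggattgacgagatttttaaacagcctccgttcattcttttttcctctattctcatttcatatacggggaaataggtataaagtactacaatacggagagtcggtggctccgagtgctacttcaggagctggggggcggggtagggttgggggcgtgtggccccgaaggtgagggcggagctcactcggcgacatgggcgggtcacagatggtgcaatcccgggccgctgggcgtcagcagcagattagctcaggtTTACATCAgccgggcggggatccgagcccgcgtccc
Atf3 promoter (chr1:191183284-191183583, minus strand): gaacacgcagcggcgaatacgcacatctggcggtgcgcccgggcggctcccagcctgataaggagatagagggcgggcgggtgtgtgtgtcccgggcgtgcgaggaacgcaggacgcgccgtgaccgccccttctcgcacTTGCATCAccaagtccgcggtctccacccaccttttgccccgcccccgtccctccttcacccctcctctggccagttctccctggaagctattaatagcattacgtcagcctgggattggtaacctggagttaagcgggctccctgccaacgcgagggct
Asns promoter (chr6:7693160-7693459, minus strand): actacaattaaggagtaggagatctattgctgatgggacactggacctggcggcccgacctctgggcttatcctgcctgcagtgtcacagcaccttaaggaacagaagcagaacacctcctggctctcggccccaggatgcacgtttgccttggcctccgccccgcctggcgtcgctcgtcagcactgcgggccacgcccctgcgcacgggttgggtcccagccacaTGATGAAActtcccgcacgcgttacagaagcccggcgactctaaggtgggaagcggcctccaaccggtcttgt

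Imprinted genes, which are expressed from 1 parental copy under the control of DNA methylation, had more calls upwards than downwards. Of 27 genes 9 rose, 1 fell and 17 did not pass, a share called of 37.0% against 13% of all genes tested, with a median log2 fold of 0.73. The maternally expressed noncoding RNA gene Meg3 (chromosome 12, 109541001 to 109571726) was at 742 and 865 CPM in NOD/ShiLtJ and 314, 442, 160.2, 288 and 233 CPM in C57BL/6J (log2 fold 1.48, SE 0.24, edgeR adjusted p 0.00224). Rian and Mirg lie on its side of the same cluster on chromosome 12, and were at 817 and 893 CPM and 59.1 and 57.9 CPM in NOD/ShiLtJ. In C57BL/6J Rian was at 308 to 583 CPM and Mirg at 15.1 to 33.6 CPM, so neither overlapped (1.00, SE 0.20 and 1.36, SE 0.24). Dlk1, the paternally expressed gene of that cluster, was low in both strains, at 6.13 and 7.79 CPM in NOD/ShiLtJ and 0.653, 3.50, 2.67, 2.29 and 3.49 CPM in C57BL/6J (log2 fold 1.46, SE 0.42, edgeR adjusted p 0.0351). Genes of the maternal and of the paternal side of the cluster were both higher in NOD/ShiLtJ. Zrsr1, a splicing factor gene expressed from the paternal copy (chromosome 11, 22972005 to 22976496), was at 26.4 and 22.5 CPM in NOD/ShiLtJ and 12.0, 9.24, 11.3, 11.8 and 10.1 CPM in C57BL/6J (log2 fold 1.17, SE 0.14, edgeR adjusted p 0.000139). Slc38a4, an amino acid transporter gene (1.35, SE 0.27), Impact, a translation regulator gene (1.11, SE 0.27), the noncoding Kcnq1ot1 (1.16, SE 0.31) and the low Nap1l5 (2.16, SE 0.57) rose too. Grb10, an adaptor gene that restrains insulin and growth factor receptors as Grb14 does, fell to 223 and 140.0 CPM in NOD/ShiLtJ, against 984, 595, 801, 392.3 and 738 CPM in C57BL/6J (log2 fold -1.95, SE 0.40, edgeR adjusted p 0.00859). The test lost these genes without AC576 for Dlk1 (1.60), Slc38a4 (1.26), Impact (1.12), Kcnq1ot1 (1.31) and Nap1l5 (2.14), without AC595 for Dlk1 (1.28), Impact (1.07), Kcnq1ot1 (0.99), Nap1l5 (2.17) and Grb10 (-1.65), without line 4 for Dlk1 (1.48), and without line 44 for Nap1l5 (2.00). Fitted on the 7 libraries alone, Zrsr1 and Grb10 passed and the other 8 did not.

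**Figure D3:**
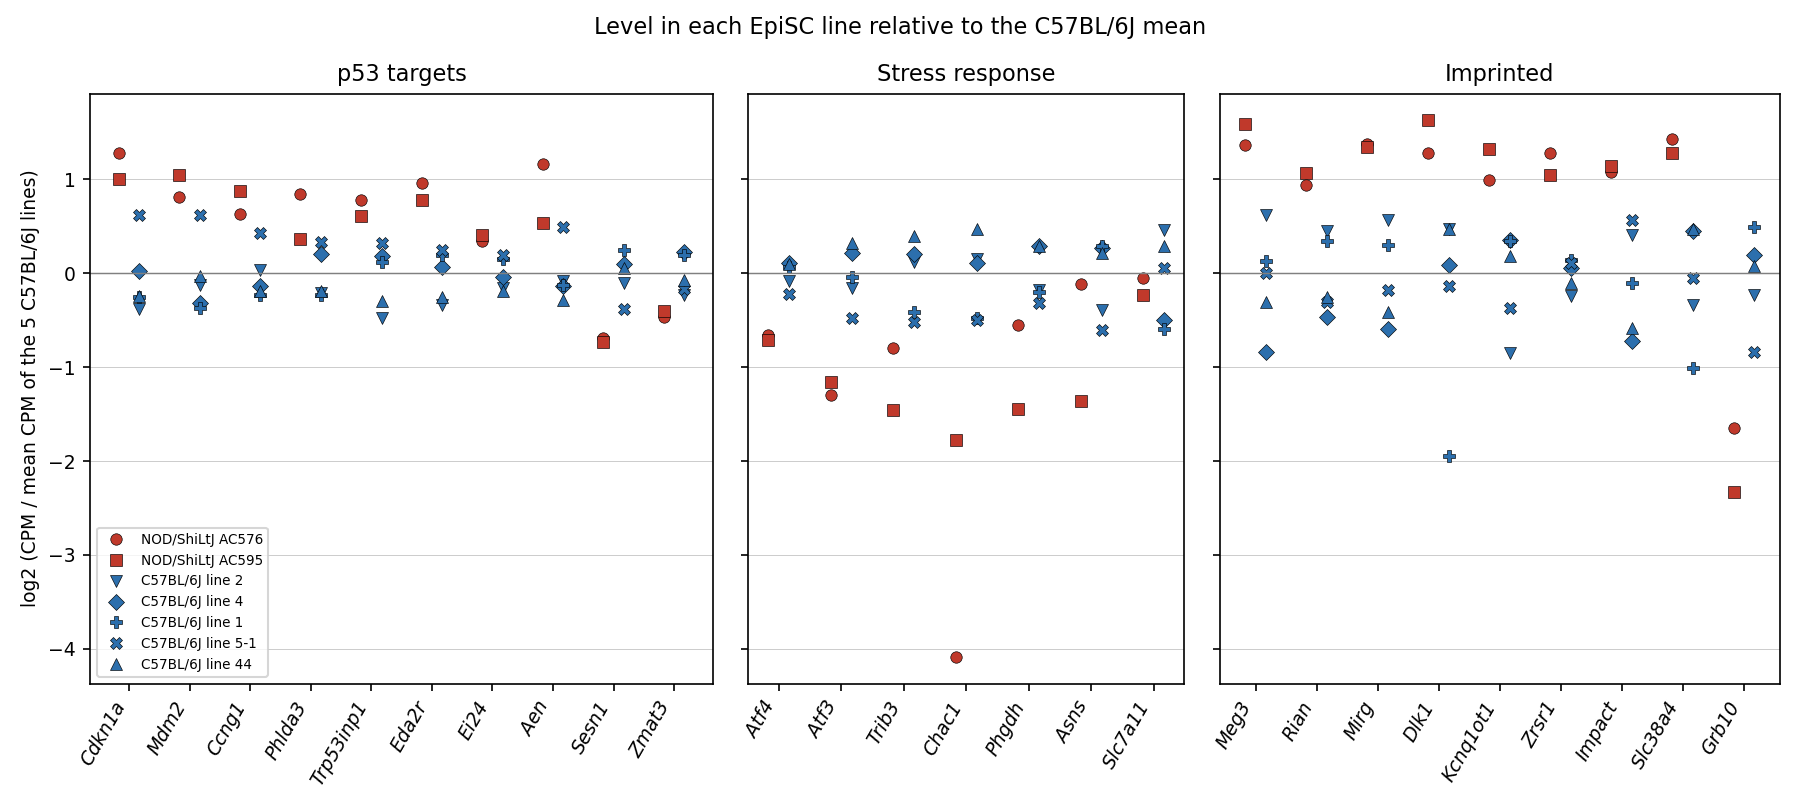
Level of p53 targets, stress response genes and imprinted genes in each line, as log2 of CPM over the mean CPM of the 5 C57BL/6J lines (vertical axis), with NOD/ShiLtJ in red left of C57BL/6J in blue for each gene. Both NOD/ShiLtJ points lie above all C57BL/6J points for Cdkn1a, Meg3 and Zrsr1 and below them for Atf4, Chac1 and Grb10, while they lie among them for Slc7a11 and, with 1 of 2 points, for Asns.

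Regulators of DNA methylation gave 3 calls. Of 13 genes 1 rose and 2 fell (23.1% called against 13% of all genes tested, median -0.03). Hells, the gene of a chromatin remodeller that aids methylation, was at 450.3 and 416 CPM in NOD/ShiLtJ and 242, 378, 208, 302 and 257 CPM in C57BL/6J (log2 fold 0.64, SE 0.17, edgeR adjusted p 0.0241). Zfp57, the gene of the zinc finger protein that keeps imprints methylated, was at 40.7 and 42.5 CPM in NOD/ShiLtJ and 94.0, 59.2, 93.5, 55.3 and 72.4 CPM in C57BL/6J (log2 fold -0.85, SE 0.21, edgeR adjusted p 0.0194). Dnmt3a is the other gene that fell. Both calls ended without AC576 (0.57 for Hells and -0.83 for Zfp57), without AC595 (0.70 and -0.88) and in the fit of the 7 libraries alone, and that of Hells also without line 44 (0.62).

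Hypoxia, cell cycle and redox genes gave a few calls each. The shares called were 17.6%, 12.5% and 21.4% in that order, against 13% of all genes tested. Of 17 glycolysis and hypoxia genes 0 rose and 3 fell (median -0.24). Vegfa, the gene of the vascular growth factor (chromosome 17, 46016993 to 46032369), was at 47.6 and 54.4 CPM in NOD/ShiLtJ and 109, 113, 132, 101 and 162 CPM in C57BL/6J (log2 fold -1.28, SE 0.20, edgeR adjusted p 0.00152). The pyruvate dehydrogenase kinase gene Pdk1 (-1.30, SE 0.25) and the glycolytic enzyme gene Gapdh (-0.49, SE 0.11) fell as well. Cdk6, the gene of a kinase of the G1 phase (chromosome 5, 3341485 to 3531008), was at 40.6 and 55.2 CPM in NOD/ShiLtJ and 118, 236, 115, 162 and 189 CPM in C57BL/6J (log2 fold -1.78, SE 0.27, edgeR adjusted p 0.0012). Of the 16 cell cycle genes it was the 1 that fell, and the mitotic cyclin gene Ccnb1 (0.30, SE 0.09) was the 1 that rose. Vegfa and Cdk6 kept their calls under all 17 alternatives. Of 14 oxidative stress and glutathione genes 3 rose and 0 fell (median 0.41): the glutathione synthesis gene Gclm (0.95, SE 0.21), the thioredoxin reductase gene Txnrd1 (0.56, SE 0.14) and the transferase gene Gsta4 (0.43, SE 0.09). Of 16 cholesterol synthesis genes none passed. Other calls of this paragraph ended without AC576 for Pdk1 (-1.29), Ccnb1 (0.12), Gclm (0.53), Txnrd1 (0.31) and Gsta4 (0.38), without AC595 for Gapdh (-0.39), without line 2 for Ccnb1 (0.29), without line 4 for Ccnb1 (0.31), without line 5-1 for Ccnb1 (0.29), and without line 44 for Ccnb1 (0.28), and none of these 6 passed in the fit of the 7 libraries alone. The number of redox genes that rose was 0 without AC576 and 8 without line 5-1.

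Signalling targets moved in both directions. The share called was 36.4% for Wnt targets and 20% for FGF and ERK targets, against 13% of all genes tested. For Nodal pathway genes it was 18.2%. Of 11 Wnt targets 1 rose and 3 fell (median -0.31). Axin2, a feedback inhibitor gene, was at 47.2 and 49.0 CPM in NOD/ShiLtJ and 13.5, 29.5, 11.1, 27.7 and 16.4 CPM in C57BL/6J (log2 fold 1.29, SE 0.31, edgeR adjusted p 0.0185). Nkd1, another inhibitor of the pathway, went the other way, at 4.77 and 4.09 CPM in NOD/ShiLtJ and 10.4, 8.78, 11.3, 8.39 and 10.4 CPM in C57BL/6J (log2 fold -1.16, SE 0.17, edgeR adjusted p 0.000867), and passed under all 17 alternatives. The nuclear mediators Lef1 (-0.71, SE 0.18) and Tcf7 (-0.31, SE 0.07) fell. Of 15 FGF and ERK targets 0 rose and 3 fell (median -0.30): the ERK phosphatase gene Dusp6 (-1.47, SE 0.39), Etv4 and Myc (-0.57, SE 0.14). Of 11 Nodal pathway genes the ligand gene Nodal rose (1.02, SE 0.29), though AC595 lay among the C57BL/6J lines, and Tdgf1 fell (median -0.15). None of 12 BMP targets passed. Apart from Nkd1, these calls ended without AC576 for Axin2 (1.30), Lef1 (-0.47), Dusp6 (-1.03), Myc (-0.54) and Nodal (0.45), without AC595 for Axin2 (1.26), Tcf7 (-0.24) and Myc (-0.63), without line 1 for Nodal (0.97), without line 4 for Dusp6 (-1.33) and Nodal (0.92), and without line 44 for Dusp6 (-1.46) and Nodal (0.96). In the fit of the 7 libraries alone Nkd1 was the 1 signalling gene that passed.

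Of the lineage markers, neuroectoderm genes had the most calls, a share of 46.2% against 13% of all genes tested. This share was 23.1% for mesoderm, 9.09% for primitive streak and 20% for epithelial and mesenchymal genes. Of 11 primitive streak genes 1 rose and 0 fell (median -0.22), the homeobox gene Evx1 at 3.30 and 3.07 CPM in NOD/ShiLtJ and 1.07, 0.462, 1.13, 0.259 and 1.07 CPM in C57BL/6J (log2 fold 1.98, SE 0.46, edgeR adjusted p 0.0148). T, the Brachyury gene, had 60.2 and 92.2 CPM in NOD/ShiLtJ and 615, 146, 361, 110.3 and 292 CPM in C57BL/6J and missed the threshold (adjusted p 0.0504 by edgeR), though the lines did not overlap. It passed without line 2 (-2.18) or line 5-1 (-2.21), and with RLE scaling, DESeq2 or the stricter filter. Of 13 mesoderm genes 1 rose, the homeobox gene Msx1 (1.498, SE 0.37), and 2 fell, the VEGF receptor gene Kdr (-1.83, SE 0.43) and the T-box gene Tbx6 (-1.18, SE 0.33), with a median of -0.33. Of 13 neuroectoderm genes 3 rose and 3 fell (median 0.18). Nefm, Nefl and the low POU factor gene Pou3f2 (1.90, SE 0.53) rose, and Olig1, Olig2 and the neuronal tubulin gene Tubb3 (-1.24, SE 0.36) fell. None of 10 extraembryonic endoderm and none of 7 trophoblast genes passed. Of 15 epithelial and mesenchymal genes 3 rose and 0 fell (median 0.49), as in the E-cadherin gene Cdh1 at 1205 and 814 CPM in NOD/ShiLtJ and 729, 694, 791, 503 and 609.7 CPM in C57BL/6J (log2 fold 0.60, SE 0.16, edgeR adjusted p 0.025). The claudin gene Cldn7 (1.37, SE 0.34) and the adhesion gene Epcam (0.38, SE 0.11) were the others. Lineage and epithelial calls ended without AC576 for Evx1 (1.92), Msx1 (1.31), Kdr (-1.36), Tbx6 (-1.11), Pou3f2 (1.52), Cdh1 (0.28), Cldn7 (0.74) and Epcam (0.10), without AC595 for Tbx6 (-1.27), Pou3f2 (2.21) and Tubb3 (-0.81), without line 1 for Pou3f2 (1.76) and Epcam (0.37), without line 2 for Epcam (0.36), without line 4 for Pou3f2 (1.75) and Tubb3 (-1.05), without line 5-1 for Epcam (0.37), and without line 44 for Pou3f2 (1.89), Tubb3 (-1.15), Cdh1 (0.57) and Epcam (0.36). Evx1, Msx1, Kdr, Tbx6, Pou3f2, Tubb3, Cdh1, Cldn7 and Epcam did not pass in the fit of the 7 libraries alone.

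MHC and interferon genes gave 4 calls, and NOD/ShiLtJ carries another MHC haplotype than C57BL/6J. Of 18 MHC class I and antigen processing genes 1 rose and 2 fell (median -0.09). The shares called were 16.7% in this list and 4.55% in the interferon list, against 13% of all genes tested. The classical genes H2-K1, at 40.5 and 42.5 CPM in NOD/ShiLtJ and 46.9, 70.2, 89.3, 58.4 and 79.6 CPM in C57BL/6J (-0.73, SE 0.32), and H2-D1, at 47.7 and 59.0 CPM in NOD/ShiLtJ and 34.5, 66.7, 46.9, 58.3 and 60.2 CPM in C57BL/6J (0.00, SE 0.23), did not pass. H2-Q6, a nonclassical gene with close copies, was low in both strains, at 2.25 and 1.61 CPM in NOD/ShiLtJ and 0.0384, 0.0770, 0.0732, 0.111 and 0.0323 CPM in C57BL/6J (log2 fold 4.78, SE 0.43, edgeR adjusted p 1.37e-05). MHC genes vary in sequence between strains and share sequence with copies, so these levels are uncertain. H2-T24 (-1.68, SE 0.48) and the immunoproteasome gene Psmb10 (-0.49, SE 0.14) fell. Of 22 interferon response genes 1 fell, the GTPase gene Gbp2 at 15.8 and 19.6 CPM in NOD/ShiLtJ and 113, 26.0, 105, 27.8 and 65.2 CPM in C57BL/6J (log2 fold -1.93, SE 0.58, edgeR adjusted p 0.0469), and 0 rose, while the list's median was 0.74. The 2 NOD/ShiLtJ lines differed here. The list's summed level was 394 CPM in AC576, below the 466 to 623 CPM of C57BL/6J, and 926 CPM in AC595, above them. H2-T24, Psmb10 and Gbp2 lost their call without AC576 for H2-T24 (-1.46), Psmb10 (-0.49) and Gbp2 (-1.79), without AC595 for H2-T24 (-1.98), Psmb10 (-0.50) and Gbp2 (-2.09), without line 1 for H2-T24 (-1.56) and Gbp2 (-1.66), without line 4 for H2-T24 (-1.57), Psmb10 (-0.46) and Gbp2 (-1.70), and without line 44 for Psmb10 (-0.43) and Gbp2 (-1.94). Of these 4 genes, H2-Q6 alone passed in the fit of the 7 libraries.

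Markers of feeders, sex chromosomes and mitochondria complete the lists. The share called was 5.88% for fibroblast genes, against 13% of all genes tested. It was 25% for Y-linked and 25% for X inactivation genes, which is 1 call among 4 tested in each list. Of 17 fibroblast genes 1 fell, the fibulin gene Fbln1 at 18.8 and 27.9 CPM in NOD/ShiLtJ and 39.7, 40.9, 50.8, 49.4 and 49.2 CPM in C57BL/6J (log2 fold -0.98, SE 0.15, edgeR adjusted p 0.000961), and 0 rose, with a median of 0.87. Col1a1, a collagen gene of the fibroblast list, had 196 and 843 CPM in NOD/ShiLtJ and 8.90, 306, 104, 758 and 298 CPM in C57BL/6J and did not pass (0.82, SE 1.01). Of 4 tested Y-linked genes Eif2s3y rose, at 106 and 92.4 CPM in NOD/ShiLtJ and 54.9, 31.0, 29.2, 47.4 and 14.4 CPM in C57BL/6J (log2 fold 1.49, SE 0.34, edgeR adjusted p 0.0143). Rlim, an X-linked activator of X inactivation, rose to 407 and 254 CPM in NOD/ShiLtJ, against 220.1, 182, 226, 187 and 192 CPM in C57BL/6J (log2 fold 0.71, SE 0.15, edgeR adjusted p 0.00861). Of 14 mitochondrially encoded genes 4 rose and 1 fell, a share called of 35.7% against 13% of all genes tested (median 0.26). Those higher were mt-Nd2 (0.58, SE 0.14), mt-Rnr2 (0.54, SE 0.15), mt-Nd1 (0.37, SE 0.10) and mt-Cytb (0.33, SE 0.08). The gene that fell was mt-Nd3, with 2 counts in NOD/ShiLtJ and 27 in C57BL/6J, a ratio of 5.83 of C57BL/6J over NOD/ShiLtJ with an interval of 1.47 to 50.6, and DESeq2 did not call it. Germline genes gave 1 call of 6 tested (16.7%) and blood and endothelium genes 1 of 4 (25%), both at low levels. Tex101, a germ cell gene, had 0.427 and 0.298 CPM in NOD/ShiLtJ and 0 to 0.115 CPM in C57BL/6J (edgeR adjusted p 0.0297). The globin gene Hba-a1 had 12 counts in NOD/ShiLtJ and 0 in C57BL/6J. Except for Fbln1, calls in this group ended without AC576 for Eif2s3y (1.38), Rlim (0.32), mt-Nd2 (0.51), mt-Rnr2 (0.67), mt-Nd1 (0.32) and mt-Cytb (0.34), without AC595 for mt-Nd2 (0.63), mt-Rnr2 (0.39), mt-Nd1 (0.41) and mt-Cytb (0.29), without line 4 for mt-Nd1 (0.35), and without line 44 for Tex101 (2.58). Those of mt-Nd3 and Hba-a1 ended without AC576, and that of mt-Nd3 without AC595 as well. In the fit of the 7 libraries alone Fbln1 passed, mt-Nd3 and Hba-a1 were not tested, and the others did not pass.

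The other strains show how far the 28 genes set NOD/ShiLtJ or C57BL/6J apart. The contrast of NOD/ShiLtJ with the mean of NZO/HiLtJ and WSB/EiJ (2 lines each) called 10.7% of all genes tested, 5.54% higher and 5.14% lower in NOD/ShiLtJ. It called 12 of the 14 higher and 4 of the 14 lower genes. It shares the NOD/ShiLtJ libraries with the first comparison, so nothing is read from that count. Grb14 was at 42.9 and 37.8 CPM in NOD/ShiLtJ, against 3.12 and 3.54 CPM in NZO/HiLtJ and 3.31 and 5.20 CPM in WSB/EiJ (log2 fold 3.42, SE 0.25, edgeR adjusted p 2.03e-06). Ttll11 was likewise below 1 CPM in all of these 4 lines (log2 fold 4.99, SE 0.37, edgeR adjusted p 2.37e-06). The mean of Grb14 was 3.78 CPM in PWK/PhJ and 4.33 CPM in CAST/EiJ, so both NOD/ShiLtJ lines were above the mean of every other strain measured. Other higher genes were shared: Vmn1r43 was at 8.95 and 9.10 CPM in NZO/HiLtJ and at 7.88 CPM in the DBA/2J line. Nefm was at 907 and 705 CPM in WSB/EiJ, above NOD/ShiLtJ, and did not pass in this contrast (log2 fold 1.00, SE 0.34, edgeR adjusted p 0.0791). Car4 averaged 231 CPM in CAST/EiJ, also above NOD/ShiLtJ.

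For some lower genes it was C57BL/6J that differed. Olig1 was at 0.0332 and 0.152 CPM in NZO/HiLtJ and 0.0761 and 0.134 CPM in WSB/EiJ, near the 0.0388 and 0.0597 CPM of NOD/ShiLtJ. Slc15a2 averaged between 0.0345 CPM in CAST/EiJ and 0.0827 CPM in PWK/PhJ. For both genes the C57BL/6J lines were above the mean of every other strain measured. Carmil3 (log2 fold -2.54, SE 0.36, edgeR adjusted p 0.000692), Islr2 (log2 fold -2.78, SE 0.55, edgeR adjusted p 0.00655), Rnf165 (log2 fold -1.63, SE 0.35, edgeR adjusted p 0.00968) and Sema5b (log2 fold -1.98, SE 0.48, edgeR adjusted p 0.0192) were lower in NOD/ShiLtJ than in NZO/HiLtJ and WSB/EiJ too. Frmd4b was at 6.20 and 6.28 CPM in NZO/HiLtJ and did not pass there (log2 fold -0.55, SE 0.33, edgeR adjusted p 0.325).

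**Figure D4:**
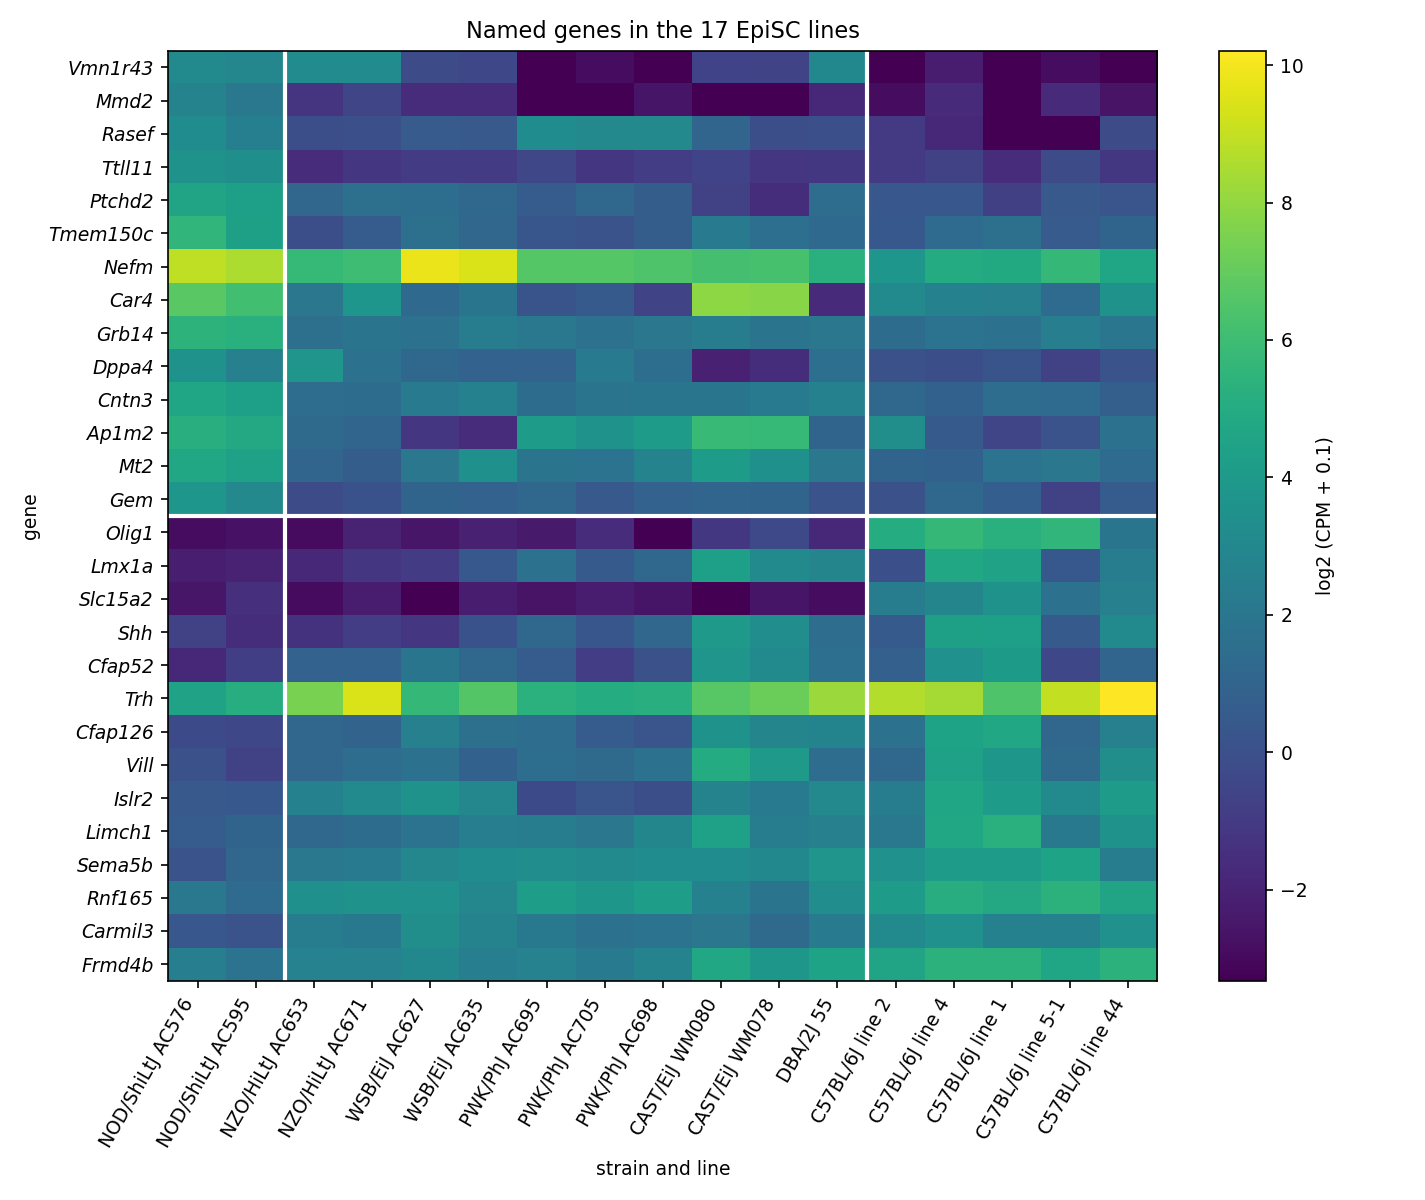
Heat map of the 28 genes (rows) in all 17 EpiSC lines (columns, NOD/ShiLtJ first and C57BL/6J last), coloured by log2 of CPM plus 0.1; white lines separate NOD/ShiLtJ and C57BL/6J from the other strains and the higher genes from the lower ones. Grb14, Ttll11 and Ptchd2 are brightest in the 2 NOD/ShiLtJ columns, Vmn1r43 also in NZO/HiLtJ and DBA/2J, and Olig1 and Slc15a2 are bright in the C57BL/6J columns alone.

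The same lines were also measured as definitive endoderm, sorted for the surface receptor CXCR4 and with another library kit, so a difference between the cell types is also one between kits, and the lines are not new replicates. There 11.4% of 19517 genes passed, 8.09% higher and 3.35% lower in NOD/ShiLtJ. In this fit 14 of 16 fibroblast markers tested were higher in NOD/ShiLtJ DE and 0 lower. Of 14 definitive endoderm markers 0 were higher and 10 lower. Whether the DE libraries of the 2 strains held the same mix of cells was not tested. Of the 28 genes 13 passed in DE, 8 of the higher and 5 of the lower ones, each in the direction seen in EpiSC. Rnf165 was at 5.99 and 8.62 CPM in NOD/ShiLtJ DE and 31.5 to 64.6 CPM in C57BL/6J DE (log2 fold -2.85, SE 0.54, edgeR adjusted p 0.00368). Sema5b was at 3.78 and 10.2 CPM in NOD/ShiLtJ DE and 18.02 to 101 CPM in C57BL/6J DE (log2 fold -2.91, SE 0.78, edgeR adjusted p 0.0253). Car4 was at 371 and 1162 CPM in NOD/ShiLtJ DE and 49.7 to 282 CPM in C57BL/6J DE (log2 fold 2.31, SE 0.57, edgeR adjusted p 0.016). Grb14 was at 15.0 and 16.4 CPM in NOD/ShiLtJ DE and 9.39 to 15.6 CPM in C57BL/6J DE and did not pass (log2 fold 0.38, SE 0.26, edgeR adjusted p 0.411), while its difference between the cell types (-3.17) did, as it did for 7.7% of the 20823 genes tested for one. Gem likewise was at 18.4 and 14.3 CPM in NOD/ShiLtJ DE and 10.98 to 13.8 CPM in C57BL/6J DE. Grb14 and Gem were chosen for large EpiSC folds, and that choice alone favours smaller folds in DE. The count of 13 fell to 3 without the DE library of AC576, to 8 in the fit of the 7 DE libraries alone, to 0 with the fibroblast markers as a covariate and to 1 with the endoderm markers as one.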

How the data were processed

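RNA was measured in 17 EpiSC libraries (stranded poly(A) kit, paired-end reads) and in 17 definitive endoderm libraries (sorted for CXCR4, SMART-Seq v4 kit), per the labels' protocols. The authors deposited a table of raw read counts per gene for each cell type, with 53655 gene symbols. Per the submitters' processing notes, STAR 2.4, HTSeq 0.6.1, DESeq2 and the build mm10 were used. For the annotation release, the strand setting and reads with several matches, nothing is given in the sources used here.

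Groups follow the strain labels. The p-values set a difference against the spread between lines within a strain, estimated over all 17 libraries of a cell type. In EpiSC this pooled spread was smaller than that within NOD/ShiLtJ or C57BL/6J alone. Counts were tested with edgeR 4.0.16 (R 4.3.3, limma 3.58.1; TMM scaling, robust quasi-likelihood F test, Benjamini-Hochberg adjustment over all genes tested), with a term for each strain and all 17 libraries of a cell type in the fit. Genes needed 10 counts in 2 of the 7 libraries compared or in 3 of all 17. A standard error is the absolute log2 fold over the square root of F. The difference between cell types was tested as an interaction over both tables, without a term for the line. The script was tested on simulated counts.

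The genes named first are the 14 largest folds in each direction among called genes with at least 5 CPM in the higher strain and without overlap between lines, passing over predicted genes, clone names, Rik genes and pseudogenes. The 31 gene lists (425 entries), the comparison and these rules were chosen with earlier results of these data known. Some single genes are not reported here. Alternatives were RLE scaling, DESeq2 1.42.0, no filter, a filter at 50 counts, other sets of libraries, Y-linked, fibroblast or endoderm covariates, a test against a 1.5-fold change, and leaving out each line. Positions are from GENCODE M21 on GRCm38, which has 14530 of the 18002 symbols tested. The EpiSC libraries hold 25.6 to 33.8 M counts, and genes of a few counts are the least precise. Intervals cover counting error only.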

Additional observations from a re-analysis of the deposited data

Results flagged for a closer look

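In 28 of the genes examined singly, the NOD/ShiLtJ minus C57BL/6J difference itself differed between definitive endoderm and EpiSC (edgeR interaction, adjusted p under 0.05, which 7.7% of 20823 genes passed). The values below are the DE log2 fold minus the EpiSC log2 fold, and kit and cell type cannot be told apart. The fit held no term for the line, though each line compared has a library in both cell types. In DE the strains also differed in most fibroblast and definitive endoderm markers, as given above. Folds were smaller in DE for 3 of the genes higher in NOD/ShiLtJ EpiSC, Grb14 (-3.17), Tmem150c (-3.01) and Gem (-2.74). These 3 were chosen for large EpiSC folds, which the difference subtracts, so the choice alone favours a smaller fold in DE. Among imprinted genes the difference was -2.78 for Meg3, -2.63 for Rian and -2.04 for Mirg. Meg3 had 50.2 and 87.3 CPM in NOD/ShiLtJ DE and 81.9 to 283 CPM in C57BL/6J DE, the other side from EpiSC, though it did not pass there (log2 fold -1.18, SE 0.54, edgeR adjusted p 0.199). Zrsr1 had a larger fold in DE (difference 1.61), at 19.7 and 15.7 CPM in NOD/ShiLtJ DE and 0.835 to 3.46 CPM in C57BL/6J DE (log2 fold 2.90, SE 0.39, edgeR adjusted p 0.000463).

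Among pluripotency and early lineage genes, differences above 0 were 4.01 for Pou5f1, 2.16 for Tdgf1, 3.90 for T, 3.82 for Tubb3 and 1.54 for Dnmt3a. Pou5f1 was at 91.3 and 24.8 CPM in NOD/ShiLtJ DE and 0.861 to 12.4 CPM in C57BL/6J DE (log2 fold 4.08, SE 0.84, edgeR adjusted p 0.00615). Tdgf1 was at 244 and 452 CPM in NOD/ShiLtJ DE and 115 to 178 CPM in C57BL/6J DE, against a fall in NOD/ShiLtJ EpiSC. The differences of Dppa4 (7.61), Kdr (8.19) and Gbp2 (7.79) rest on levels at or near 0 in C57BL/6J DE and are no bound. Differences below 0 were -1.13 for Fgf5, -1.19 for Dnmt3b, -2.07 for Esrrb, -1.63 for Nodal, -1.12 for Hells and -1.12 for Rlim. Genes lower in NOD/ShiLtJ EpiSC had differences of 5.02 for Limch1, 2.68 for Frmd4b, 4.21 for Cdk6, 2.03 for Atf3, 1.37 for Trib3 and 0.98 for Myc, and the difference of Asns, which had not passed in EpiSC, was 1.42. Limch1 and Frmd4b were likewise chosen for large EpiSC folds.

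Within C57BL/6J EpiSC, 1 line stood far from the other 4 in 8 of 119 genes examined (Dixon's criterion at the 95% level). Chance alone meets it in about 1 of 20 groups, so this number is near what chance gives. Line 1 was lowest for Ptchd2 (0.499 CPM), Dlk1 (0.653 CPM) and Myc (131.7 CPM). Line 5-1 was highest for Aen (166.5 CPM), Txnrd1 (751.9 CPM) and Mt1 (33.1 CPM). Line 44 was lowest for Olig1 (3.72 CPM), and line 4 highest for Epcam (325.2 CPM).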

How the results depend on the processing

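No called gene named above changed direction under the alternatives. Cer1 and Sox17, which had not passed, had folds of 0.13 and 0.63 with the endoderm covariate. Both genes are part of that covariate, so folds moved towards or past 0 follow from how it was built. Other genes that had not passed took both signs over the alternatives too, such as Nanog (-0.14 to 0.75) and Col1a1 (-0.59 to 1.54). Col1a1 is likewise part of the fibroblast covariate. The strain comparison could not be paired, because the NOD/ShiLtJ and C57BL/6J lines are different lines and their numbers pair nothing. The interaction between cell types was not paired by line either, although these lines were measured in both. Its p-values treat the libraries of a line as independent. RLE scaling, DESeq2, both other filters and the fibroblast covariate left the counts over all EpiSC genes within 1.5 times. Genes changed numbered 2334, against 411 in the fit of the 7 libraries, 1150 without the wild-derived PWK/PhJ and CAST/EiJ, 602 with the Y-linked covariate, 466 for the test against a 1.5-fold change and 800 with the endoderm covariate. In that order, genes higher in NOD/ShiLtJ numbered 205, 536, 259, 256 and 360, genes lower 206, 614, 343, 210 and 440, and called members of the lists 13, 36, 17, 14 and 32, against 78. Leaving out 1 line gave 848 to 3466 genes changed, 372 to 1594 higher and 476 to 1872 lower, with 26 to 109 list members. Of the 28 genes named by size, 13 passed in DE, against 8 in the fit of the 7 DE libraries, 0 with the fibroblast covariate and 1 with the endoderm covariate, and 3 to 13 when 1 line was left out. Where a lone NOD/ShiLtJ line remains, it is assumed to vary like the other strains. The cause of these changes was not tested. Depth was not varied, and it limits genes of a few counts such as Olig2 and mt-Nd3.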

Other observations

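Symbols of a clone-name type, mostly unnamed transcripts, were 3208 of the genes tested, and 213 rose and 165 fell in NOD/ShiLtJ EpiSC (11.8%, against 13.3% of 14300 named genes). Among called genes, folds above 8 were unevenly placed. Of the 3208 clone names, 81 were more than 8-fold higher and 57 more than 8-fold lower, against 54 and 44 of the 14300 named genes. Of 203 pseudogene symbols 21 rose and 7 fell. How many of these reads align to other copies of the same sequence was not tested.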
